A study of Mus musculus with 20 samples.

Results

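Splicing factor genes were taken as the protein-coding mouse genes whose symbols start with Srsf, Snrp, Hnrnp, Sf3a or Sf3b, and 53 of the 21887 protein-coding genes of the annotation met this rule. A region of the deposited ChIP-seq lists was given to such a gene when the gene was the nearest one to the region's centre, with a distance of 0 inside the gene and a limit of 100 kb. Of the 22081 distinct regions, 82 lay at these genes, and 45 of the 53 genes had at least 1. The families held 11 Srsf, 12 Snrp, 21 Hnrnp and 9 Sf3a or Sf3b genes.

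ChIP-seq, which recovers the DNA bound by a chosen protein, was done for 2 transcription factors, Bcl11b and Foxp3, in T cells sorted from draining lymph nodes and spleen of C57BL/6 mice. WT regulatory T cells (Treg) and the cells labelled Tn both carried the genotype Foxp3-IRES-YFP-Cre and were both labelled as sorted CD4+YFP+, which leaves the label Tn unexplained. Bcl11b-KO Treg carried Bcl11b f/f together with Foxp3-IRES-YFP-Cre, in which the Cre recombinase is made from the Foxp3 locus, and were also sorted as CD4+YFP+. KIKO cells had the genotype Foxp3-GFPKO, were sorted as CD4+GFP+ and are labelled as Treg without Foxp3 (Tfn). The immunoprecipitated samples were 3 for Bcl11b in WT Treg, 3 for Bcl11b in WT Tn, 2 for Bcl11b in KIKO, 2 for Foxp3 in WT Treg and 2 for Foxp3 in Bcl11b-KO Treg, beside 8 input samples. The age and number of the mice are not in the labels.

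Each of 4 comparisons came as 3 lists of positions, namely regions specific to the first set, regions common to both and regions specific to the second set. The lists describe groups and hold no height, score or p-value, so a region is either listed or not, no value per sample exists, and no test over samples could be made. Shares are therefore given with 95% Wilson intervals, which cover counting error only, beside the share over all regions. Some common regions have exactly the width typical of 1 set (Bcl11b regions of 198 bp in WT Treg, 226 bp in Tn cells and 252 bp in KIKO cells, Foxp3 regions of 220 bp in WT and 276 bp in Bcl11b-KO Treg), so how a region came to be called common is not known. At the marker genes checked, Treg genes (Foxp3, Il2ra, Ctla4, Ikzf2) all had a region, and in the comparison of WT with Bcl11b-KO Treg 8 of their regions were WT-specific, 12 common and 1 KO-specific. In the same comparison the 11 genes of CD8 T and NK cells had 0 WT-specific, 3 common and 11 KO-specific regions. The 5 myeloid genes had 0, 0 and 3, and the 5 B cell genes 0, 1 and 0. Of all regions of this comparison 27.2% were WT-specific, 59.7% common and 13.1% KO-specific. The part of other cells in the regions below was not tested.

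The proteins made by these genes carry out and steer the removal of introns from pre-mRNA. Small nuclear ribonucleoproteins (snRNPs) recognise the splice sites and are built on a ring of Sm proteins, the SF3a and SF3b complexes belong to the U2 snRNP and hold it at the branch point, SR proteins bind exons and recruit this machinery, and heterogeneous nuclear ribonucleoproteins (hnRNPs) coat the transcript and often oppose them. They are made in nearly all cells, and activated T cells change the splicing of many transcripts, with the alternative exons of Ptprc, controlled in part by hnRNP L and its relative hnRNP LL, as a classic example.

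Many of these regions lay at transcription starts, so the promoters under them are shown first. A promoter window here is the 300 bases from 250 before to 50 after a RefSeq start (build GRCm38.p6), and 47 of the 53 genes had 1 or more, 64 windows in all. Below are the windows of the 6 genes with the most regions among those with a region over the window, followed by Snrpe and Sf3a3, which were picked after their values were seen, the first as a promoter region common in all 4 comparisons and the second as one common in the 3 Bcl11b comparisons but WT-specific against Bcl11b-KO. Where a gene has several windows, the one with the most covered bases is given, or the first of equals. Each is written 5′ to 3′ on the strand of its gene, and capitals mark matches, on either strand, to the ETS words GGAAGTG or CCGGAAG, the GC box GGGCGG, the CCAAT box CCAAT, the BCL11A word TGACCA, the forkhead word TGTTTAC, the RUNX word TGTGGTT, the CRE TGACGTCA or the YY1 word AAGATGGC. Neighbouring matches can overlap or touch and then form 1 run of capitals.
Hnrnpf (chr6:117917044-117917343, plus strand): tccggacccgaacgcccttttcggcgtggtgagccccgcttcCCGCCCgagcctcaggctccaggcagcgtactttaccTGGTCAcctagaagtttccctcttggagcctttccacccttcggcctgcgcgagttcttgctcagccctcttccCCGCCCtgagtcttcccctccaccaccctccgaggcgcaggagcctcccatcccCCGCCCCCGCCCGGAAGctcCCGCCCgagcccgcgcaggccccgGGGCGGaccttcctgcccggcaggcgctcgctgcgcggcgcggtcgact
Hnrnpa2b1 (chr6:51469796-51470095, minus strand): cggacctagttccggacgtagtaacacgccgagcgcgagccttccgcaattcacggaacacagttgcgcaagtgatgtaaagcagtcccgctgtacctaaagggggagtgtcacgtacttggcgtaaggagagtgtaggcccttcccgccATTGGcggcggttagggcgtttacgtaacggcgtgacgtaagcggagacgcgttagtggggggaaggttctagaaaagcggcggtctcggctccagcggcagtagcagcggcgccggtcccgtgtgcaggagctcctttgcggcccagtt
Srsf11 (chr3:158031699-158031998, minus strand): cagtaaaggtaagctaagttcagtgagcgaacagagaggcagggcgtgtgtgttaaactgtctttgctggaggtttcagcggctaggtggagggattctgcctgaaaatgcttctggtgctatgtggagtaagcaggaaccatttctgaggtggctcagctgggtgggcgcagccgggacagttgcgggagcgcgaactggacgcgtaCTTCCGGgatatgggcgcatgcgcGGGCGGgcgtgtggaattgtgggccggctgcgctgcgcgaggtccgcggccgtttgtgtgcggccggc
Srsf5 (chr12:80945249-80945548, plus strand): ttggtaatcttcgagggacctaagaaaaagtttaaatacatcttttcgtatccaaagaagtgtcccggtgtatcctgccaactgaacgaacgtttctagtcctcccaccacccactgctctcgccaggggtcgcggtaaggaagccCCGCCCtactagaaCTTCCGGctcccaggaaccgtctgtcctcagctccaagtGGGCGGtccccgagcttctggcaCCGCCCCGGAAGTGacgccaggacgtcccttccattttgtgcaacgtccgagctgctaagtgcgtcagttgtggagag
Hnrnpa3 (chr2:75659009-75659308, plus strand): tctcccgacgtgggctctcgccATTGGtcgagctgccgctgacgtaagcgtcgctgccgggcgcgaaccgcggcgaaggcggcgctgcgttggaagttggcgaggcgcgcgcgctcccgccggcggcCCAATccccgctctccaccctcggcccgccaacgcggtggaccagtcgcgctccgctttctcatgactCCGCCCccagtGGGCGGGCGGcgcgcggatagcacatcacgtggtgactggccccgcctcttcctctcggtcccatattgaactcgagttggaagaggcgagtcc
Hnrnpd (chr5:99978889-99979188, minus strand): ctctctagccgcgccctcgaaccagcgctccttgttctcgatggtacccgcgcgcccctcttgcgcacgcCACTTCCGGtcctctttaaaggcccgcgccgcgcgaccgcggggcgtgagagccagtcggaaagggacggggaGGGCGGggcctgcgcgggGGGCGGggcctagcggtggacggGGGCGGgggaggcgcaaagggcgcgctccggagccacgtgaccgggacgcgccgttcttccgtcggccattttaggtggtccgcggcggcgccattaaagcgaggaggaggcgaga
Snrpe (chr1:133610231-133610530, minus strand): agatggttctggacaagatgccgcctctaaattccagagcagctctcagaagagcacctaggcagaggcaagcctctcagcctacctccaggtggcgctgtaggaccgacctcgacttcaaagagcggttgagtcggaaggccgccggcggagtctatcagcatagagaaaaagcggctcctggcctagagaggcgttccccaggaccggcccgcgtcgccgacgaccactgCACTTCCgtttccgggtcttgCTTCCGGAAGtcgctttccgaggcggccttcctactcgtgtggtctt
Sf3a3 (chr4:124714611-124714910, plus strand): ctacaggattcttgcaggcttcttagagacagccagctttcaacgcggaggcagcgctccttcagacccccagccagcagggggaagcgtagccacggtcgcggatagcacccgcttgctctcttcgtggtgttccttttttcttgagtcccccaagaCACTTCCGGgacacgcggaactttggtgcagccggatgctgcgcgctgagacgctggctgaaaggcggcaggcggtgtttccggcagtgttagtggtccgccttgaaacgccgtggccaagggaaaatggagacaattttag

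The Hnrnpf region covered 259 of these 300 bases, the Srsf11 region 259, the Snrpe region 247, the Hnrnpa2b1 region 220 and the Sf3a3 region 293, while that of Srsf5 covered 115 and that of Hnrnpa3 only 82. The Hnrnpd window carried 2 regions, of which the one covering 166 bases was given to its neighbour 4930524J08Rik, whose body holds its centre. The Snrpe window held 3 ETS matches and no GC box, and Srsf5 held 3 of each. Hnrnpa2b1 and Hnrnpa3 had no ETS match and carried CCAAT boxes instead, 1 and 2.

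Regions were found at 84.9% of the splicing factor genes (72.9 to 92.1), beside 51.0% of all protein-coding genes. Every one of the 11 Srsf genes had a region, as did 11 of 12 Snrp genes, 17 of 21 Hnrnp genes and 6 of 9 Sf3a or Sf3b genes. Most occupied genes carried few regions, with 22 genes at 1, 14 at 2 and 7 at 3, while Hnrnpa2b1 had 4 and Hnrnpf had 7. The splicing factor genes were not long, with a median of 10.4 kb against 17.2 kb for all protein-coding genes.

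The 8 genes with no assigned region were Hnrnpa1, Hnrnpa1l2-ps2, Hnrnpc, Hnrnpll, Sf3a2, Sf3b1, Sf3b3 and Snrpa. In 5 of the 8 a region did lie within 1 kb of the gene's start or, for Hnrnpll, of a gene end, but its centre fell nearer to or inside a neighbour. Snrpa, the U1 snRNP protein A, had a region 42 bp from its start that was given to BC024978, and Hnrnpc one 313 bp away that was given to Rpgrip1. The region 442 bp from the start of Sf3a2 was given to Plekhj1, that at Hnrnpa1 (944 bp) to Cbx5 and that at Hnrnpll (8 bp) to 4933407O12Rik. Counting such neighbours, which was not done for all protein-coding genes, 50 of the 53 genes had a region. The exceptions were Sf3b1, the large SF3b subunit that touches the branch point, with its nearest region 25.1 kb away, Sf3b3 at 4.47 kb and Hnrnpa1l2-ps2, annotated as protein-coding despite its symbol, at 1594 kb.

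**Figure D1:**
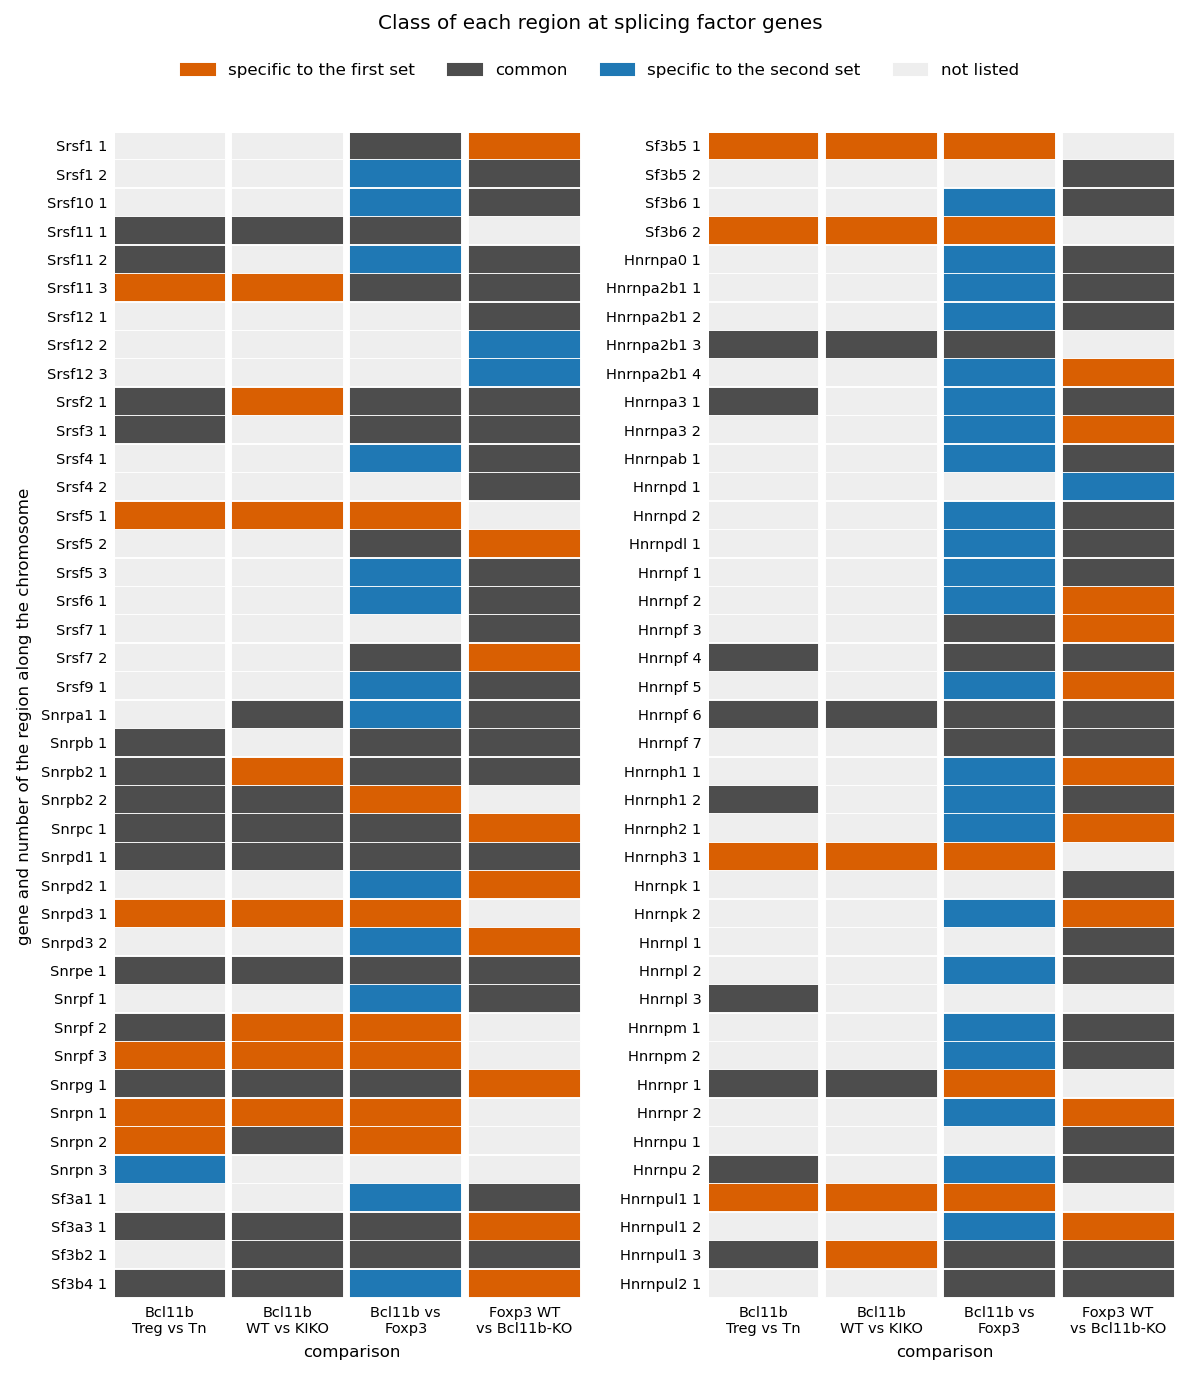
Class of each of the 82 regions at splicing factor genes (rows, by gene and number along the chromosome) in the 4 comparisons (columns). Orange is specific to the first set named, dark grey is common, blue is specific to the second set and light grey is not listed; the third column is mostly blue or dark grey, with 36 Foxp3-only and 22 common regions against 12 Bcl11b-only.

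By factor, 43 of the 53 genes had a region listed for Foxp3 in WT Treg (81.1%, against 42.5% of all protein-coding genes). For Bcl11b in WT Treg, 31 had one (58.5%, against 29.4%). These shares were 87.4% and 57.7% at other splicing genes and 74.4% and 55.6% at ribosomal protein genes. Both factors were found at 29 of the 53 genes. WT Foxp3 without Treg Bcl11b was found at 14 genes, among them Srsf4, Srsf6, Srsf9, Hnrnpk and Hnrnpm. Treg Bcl11b without WT Foxp3 was found at Hnrnph3 and Snrpn. These counts depend on the nearest-gene rule. A Foxp3-only region 186 bp from the Hnrnph3 start was given to Pbld2. Hnrnpd, counted among the 14, had a region shared by both factors 244 bp from its start, given to 4930524J08Rik. This split by both factors was not made over all protein-coding genes, so these counts have no background share. Foxp3 in Bcl11b-KO Treg was listed at 35 genes (66.0%, against 36.1% of all protein-coding genes), Bcl11b in Tn at 21 (39.6%, against 20.4%) and Bcl11b in KIKO at 14 (26.4%, against 9.55%).

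The families differed in these counts. Foxp3 was listed at all 11 Srsf genes both in WT and in Bcl11b-KO Treg, and at 10 and 6 of the 12 Snrp genes. Bcl11b in KIKO cells was listed at 7 of 12 Snrp genes, 3 of 9 Sf3a or Sf3b genes, 3 of 21 Hnrnp genes and 1 of 11 Srsf genes. The shares of all protein-coding genes are those just given, 42.5%, 36.1% and 9.55%, and differences between families were read from the counts and not tested.

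The regions sat close to transcription starts. Of the 82, 50 had their centre within 1 kb of the start of a protein-coding gene (61.0%, 50.2 to 70.8), beside 33.6% of all regions, and the median distance was 536 bp against 6115 bp. Regions at ribosomal protein genes, another group made in nearly all cells, gave 59.1%. Starts were known for 17492 of the 21887 protein-coding genes, so regions at the other genes could count as far from a start. This limit holds for every share and median by distance from a start. Within 1 kb of either gene end the share was 63.4%, beside 37.9% of all regions and 77.3% at ribosomal protein genes. The share inside a gene body was 59.8%, close to the 60.4% of all regions. Of the 76 regions whose own gene had a start in the table, 49 lay within 1 kb of it, 26 upstream and 23 downstream, at a median of 167 bp. A further limit is sharing: 10 regions lay within 1 kb of the start of another gene and 7 were given to 2 genes, 6 with the centre inside both (at Hnrnpf, Hnrnph3, Hnrnpk, Srsf2 and Snrpn) and 1 outside Snrpn and Snurf at the same distance from each.

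**Figure D2:**
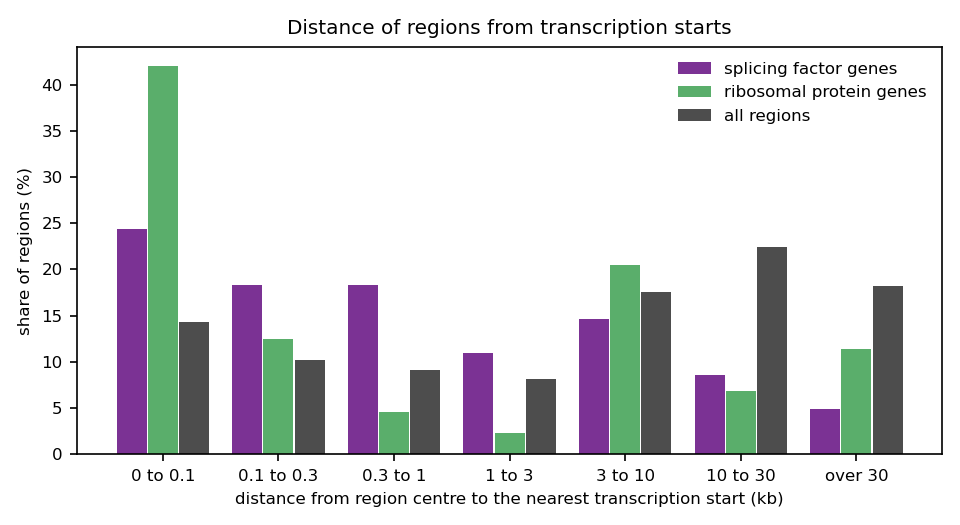
Share of regions (vertical axis, %) by distance from the region's centre to the nearest transcription start of a protein-coding gene (horizontal axis, kb, in unequal bins) for splicing factor genes, ribosomal protein genes and all regions. Within 0.1 kb lay 24.4% of splicing factor regions, 42.0% of ribosomal protein regions and 14.3% of all regions, and beyond 30 kb 4.88%, 11.4% and 18.2%. A region at a gene with no known start, such as Snrpd1, can count as far away though it lies at a gene end.

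SR protein genes carried 20 regions. The founding SR protein gene Srsf1 had 1 region 262 bp inside its start, shared by Bcl11b and Foxp3 and WT-specific against Bcl11b-KO, and 1 at 1729 bp that was Foxp3-only and common. Srsf2, which binds exonic enhancers, had 1 region 51 bp from its start, in both Srsf2 and Mfsd11; it was common with Tn, WT-specific against KIKO, shared by both factors and common with Bcl11b-KO. At Srsf3, which encodes a small SR protein, a 556 bp region, the widest of the 82, lay 125 bp upstream and was common in 3 comparisons and not listed against KIKO.

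Srsf5 and Srsf7 showed different classes at the promoter and away from it. The Srsf5 promoter region, 44 bp past the start, was shared by Bcl11b and Foxp3 and WT-specific against Bcl11b-KO, while a region 2341 bp upstream was listed for Bcl11b in WT Treg alone: Treg-specific against Tn, WT-specific against KIKO and Bcl11b-only against Foxp3. The last Srsf5 region, 614 bp inside, was Foxp3-only and common with Bcl11b-KO. At Srsf7 the region 123 bp upstream was shared and WT-specific, and the one 14296 bp downstream of the start was listed only as common to WT and Bcl11b-KO Foxp3.

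Srsf11 had 3 regions, and each was listed for Bcl11b in a different way. Its region 94 bp past the upstream start was Treg-specific against Tn and WT-specific against KIKO, the only Treg-specific region of the 10 that lay within 1 kb of a start. It was also shared with Foxp3 and common with Bcl11b-KO, and it lay within 1 kb of the start of Lrrc40. The region 318 bp past the inner start was common with Tn, with KIKO and with Foxp3, and was not listed in the comparison with Bcl11b-KO. The third, over the promoter printed above, was common with Tn but Foxp3-only where Treg Bcl11b was set against Foxp3.

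Srsf4, Srsf6, Srsf9 and Srsf10, the last a splicing repressor when it loses its phosphates, each had a Foxp3-only region at 68 to 248 bp upstream, and all 4 were common with Bcl11b-KO. Srsf4 had another region 98 bp past its start that was listed only as common to WT and Bcl11b-KO Foxp3. Srsf12 stood apart, since none of its 3 regions was listed in any comparison with Bcl11b. The one 565 bp past its start was common to WT and Bcl11b-KO Foxp3, and those at 16523 bp (chr4:33225658-33225933, mm10) and 25080 bp (chr4:33234215-33234490) were KO-specific, 2 of the 3 KO-specific regions at splicing factor genes.

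Genes of snRNP proteins carried 17 regions. Snrpe and Snrpd1, which encode proteins of the Sm ring, were common in all 4 comparisons, with centres 10 bp inside the Snrpe start (chr1:133610063-133610477) and 40 bp outside the end of Snrpd1. Along with 1 region of Hnrnpf these were the only 3 of the 82 regions (3.66%, against 3.30% of all regions) common throughout. Snrpg, another Sm protein, and Snrpc, the U1 snRNP protein that helps read the 5′ splice site, were likewise common with Tn, with KIKO and with Foxp3, at 110 and 50 bp upstream, but both were WT-specific against Bcl11b-KO. Sf3a3, described below, had the same pattern, which was held by 3 of the 82 regions and 1.19% of all regions.

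Snrpb, which makes the Sm proteins B and B′, had 1 region 54 bp from a gene end, common with Tn, shared by both factors and common with Bcl11b-KO, and not listed against KIKO. The U2 snRNP genes Snrpb2 and Snrpa1 differed from each other. Snrpb2 had a promoter region 74 bp upstream that was common with Tn, WT-specific against KIKO, shared by both factors and common with Bcl11b-KO, and a second region 944 bp past the gene that was common with Tn and KIKO and Bcl11b-only. The Snrpa1 region, 234 bp inside, was common with KIKO and with Bcl11b-KO, but Foxp3-only against Treg Bcl11b. Snrpd2 had 1 Foxp3-only, WT-specific region 454 bp upstream.

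Bcl11b without Foxp3 was listed at snRNP genes mostly away from starts. Snrp genes had 6 Bcl11b-only regions of 16 (37.5%, 18.5 to 61.4), beside 3 of 32 at Hnrnp genes, 1 of 15 at Srsf genes and 2 of 7 at Sf3a or Sf3b genes. Over all regions, likewise at any distance, the share was 14.9%. Among all regions farther than 1 kb from a start it was 21.4%, a share not computed for Snrp genes alone. Of the 6 regions, Snrpf and Snrpn held 2 each, and the families were not tested against each other. Snrpf, an Sm protein gene, had no region at its promoter; its 3 regions lay 4510, 6974 and 8888 bp upstream, the first Foxp3-only and common with Bcl11b-KO, the other two Bcl11b-only. Snrpd3 had a Bcl11b-only region 8231 bp inside and a Foxp3-only, WT-specific one at 13929 bp. A region 109 bp from its start, given to Gucd1, was common with Tn, shared by both factors and WT-specific against both KIKO and Bcl11b-KO.

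Snrpn, an imprinted gene best known for its expression in brain, had 3 regions and none was listed for Foxp3. Both regions that also counted for Snurf were Treg-specific and Bcl11b-only; one was WT-specific against KIKO and the other common. The third, 60121777 to 60122002 on chromosome 7 of mm10, was Tn-specific, the only Tn-specific region among the 82. All 3 lay 9162 bp or more from an annotated Snrpn start.

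SF3 complex genes carried 8 regions at 6 genes. Sf3a3, a subunit of SF3a, had 1 region 113 bp upstream, common in the 3 Bcl11b comparisons and WT-specific against Bcl11b-KO. Sf3b2, which contacts the pre-mRNA near the branch point, had 1 region 41 bp upstream that was common with KIKO, shared by both factors and common with Bcl11b-KO, but not listed in the comparison with Tn. Sf3b4 had 1 region of 420 bp, 33 bp inside a gene end; it was common with Tn and with KIKO, which places it in the Treg Bcl11b set, yet Foxp3-only where that set was compared with Foxp3. Sf3a1 had 1 Foxp3-only region 12 bp inside its start, within 1 kb of the start of Ccdc157.

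Sf3b5 and Sf3b6, small SF3b subunits, each had a region near a gene end and a second one farther away. Near the end, the Sf3b6 region 48 bp upstream was Foxp3-only and common with Bcl11b-KO, and the Sf3b5 region 80 bp from a gene end was listed only as common to WT and Bcl11b-KO Foxp3. Farther away, 4059 bp inside Sf3b6 and 13164 bp from Sf3b5, both were listed for WT Treg Bcl11b alone. Sf3a2 had no region of its own, and the one given to Plekhj1 was Treg-specific, WT-specific against KIKO, shared by both factors and common with Bcl11b-KO.

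Genes of hnRNPs carried 37 regions, and 22 of the 32 listed in the comparison of the factors were Foxp3-only (68.8%, 51.4 to 82.0), an interval that held the 56.8% of all regions, beside 7 of 15 at Srsf genes and 4 of 16 at Snrp genes. Hnrnpf, whose protein binds runs of guanine, had 7 regions, the first starting at 117890294 and the last ending at 117917912 on chromosome 6. Those 9849 and 8608 bp upstream were Foxp3-only. The other five lay from 67 to 508 bp of an annotated start or, for the first start, 3 bp away. Of the 7, 4 were shared by Bcl11b and Foxp3 and 3 were Foxp3-only, while against Bcl11b-KO 3 were WT-specific and 4 common. Only the fourth and the sixth were listed with Tn, both as common, and only the sixth with KIKO.

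Hnrnpa2b1, an abundant hnRNP of the A/B group, had 3 Foxp3-only regions at its start and in its body, of which 1 was WT-specific against Bcl11b-KO. Between them, 263 bp past a start, lay a 198 bp region common with Tn, with KIKO and with Foxp3 that was not listed in the comparison with Bcl11b-KO. Hnrnpa3 and Hnrnph1 each had 2 Foxp3-only regions, in each case 1 common with Bcl11b-KO and 1 WT-specific, and the common one was also common with Tn. Hnrnpr had 1 region 44 bp upstream that was Foxp3-only and WT-specific, and 447 bp upstream one that was common with Tn and KIKO and Bcl11b-only. That region was the only Bcl11b-only region of the 12 that lay within 1 kb of a start.

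Hnrnpul1 and Hnrnpul2, relatives of the scaffold protein hnRNP U, both had a region shared by the factors. The Hnrnpul1 region was common with Tn, WT-specific against KIKO and common with Bcl11b-KO. The other two Hnrnpul1 regions were a Foxp3-only, WT-specific one 598 bp upstream of a start and one 1054 bp outside the gene that was listed for WT Treg Bcl11b alone. Hnrnpu itself had a region 167 bp upstream of a start that was common with Tn, Foxp3-only and common with Bcl11b-KO, and another listed only as common to WT and Bcl11b-KO Foxp3. Hnrnph3 had 1 region, 7863 bp past its start and also inside Rufy2, listed for WT Treg Bcl11b alone. A Foxp3-only, WT-specific region 186 bp from its start was given to Pbld2.

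Hnrnpl, the regulator of Ptprc exons, had 3 regions within 2400 bp upstream of its annotated start, which lies inside the gene. The first was 56 bp outside the gene and the others were inside it. Of the 3 regions, 2 were common to WT and Bcl11b-KO Foxp3 and 1 was common to Treg and Tn Bcl11b and listed nowhere else. Hnrnpa0, Hnrnpab, Hnrnpdl and Hnrnpm had only Foxp3-only regions that were common with Bcl11b-KO, 1 each and 2 at Hnrnpm. Hnrnph2 and Hnrnpk had a Foxp3-only, WT-specific region each, within 1 kb of the starts of Gla and Rmi1. Hnrnpk had another, 651 bp past its start, listed only as common to WT and Bcl11b-KO Foxp3. Hnrnpd, which binds AU-rich RNA, had a Foxp3-only, common region 67 bp past its start and, 1243 bp past it at chr5:99977558-99977833, the last of the KO-specific regions.

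Setting Bcl11b in WT Treg against Tn, which asks where Bcl11b binding differs between the cell types, 34 splicing factor regions were listed. Of these 10 were Treg-specific (29.4%, 16.8 to 46.2; all regions 28.0%), 23 were common (67.6%, 50.8 to 80.9; all regions 62.0%) and 1 was Tn-specific (2.94%, 0.521 to 14.9; all regions 10%). All 3 intervals held the share of all regions. The classes divided by position. Within 1 kb of a start 1 of 17 regions was Treg-specific (5.88%) and 16 were common, and farther away 9 of 17 were Treg-specific (52.9%); over all regions the Treg-specific shares were 7.81% and 38.1%.

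Against KIKO, the comparison that asks where Bcl11b is found without Foxp3, 27 regions were listed. WT-specific were 13 (48.1%, 30.7 to 66.0; all regions 61.6%), common were 14 (51.9%, 34.0 to 69.3; all regions 37.2%), and 0 were KIKO-specific (0 to 12.5%; all regions 1.17%). Again the intervals held the shares of all regions. Within 1 kb of a start 10 of 13 were common (76.9%, 49.7 to 91.8), beside 50.6% of all regions there and 75.0% at ribosomal protein genes. Snrp genes held 7 of the 14 common regions and 12 of the 27 listed ones, a common share of 58.3% (32.0 to 80.7).

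Between the factors in WT Treg, 70 regions were listed. Bcl11b-only were 12 (17.1%, 10.1 to 27.6; all regions 14.9%), common 22 (31.4%, 21.8 to 43.0; all regions 28.3%) and Foxp3-only 36 (51.4%, 40.0 to 62.8; all regions 56.8%), all near the shares of all regions. Within 1 kb of a start lay 19 of the 22 shared regions (86.4%, 66.7 to 95.3; all shared regions 49.1%), 27 of the 36 Foxp3-only regions (75.0%; all 38.1%) and 1 of the 12 Bcl11b-only regions (8.33%; all 9.21%).

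For Foxp3 in WT against Bcl11b-KO Treg, 66 regions were listed. WT-specific were 19 (28.8%, 19.3 to 40.6; all regions 27.2%), common 44 (66.7%, 54.7 to 76.8; all regions 59.7%) and KO-specific 3 (4.55%, 1.56 to 12.5; all regions 13.1%). The KO-specific share was the only one of the 12 shares whose interval did not hold the share of all regions. The same was seen at ribosomal protein genes (3.95%, 1.35 to 11.0) and at other splicing genes (7.24%, 4.09 to 12.5). None of the 47 regions within 1 kb of a start was KO-specific (0 to 7.56%), beside 3.80% of all regions there, and farther away it was 3 of 19 (15.8%) beside 18.7%. Among the 47, 15 were WT-specific (31.9%), beside 27.6% of all regions at starts and 42.9% at ribosomal protein genes.

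**Figure D3:**
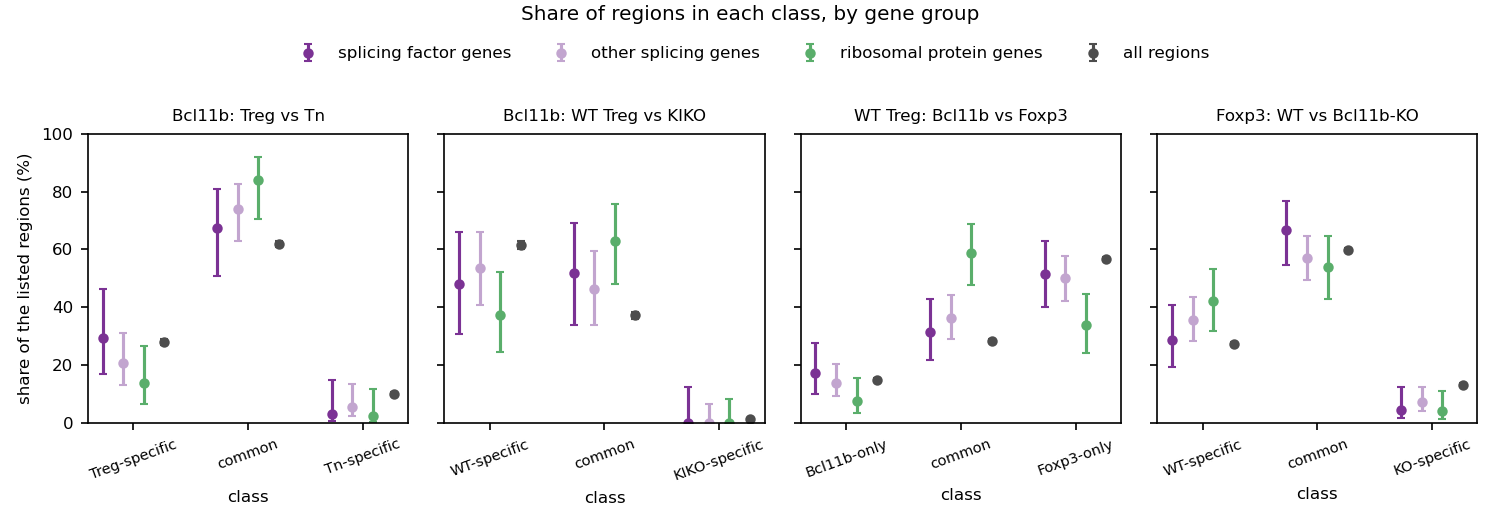
Share of the listed regions in each class (vertical axis, %) for the 4 comparisons (panels), by gene group. Points are shares and bars are 95% Wilson intervals, which cover counting error only; for splicing factor genes they are wide, and apart from the 4.55% KO-specific share they span the points of all regions.

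Foxp3 regions at these genes can be divided by their class in the comparison of the factors, Foxp3-only or shared with Bcl11b. The Foxp3-only group includes 6 regions listed for Treg Bcl11b against Tn or KIKO, so it is not free of Bcl11b. Of the Foxp3-only regions 24 were common with Bcl11b-KO and 12 WT-specific, and of the shared regions 13 were common and 7 WT-specific, which gives WT-specific shares of 33.3% (20.2 to 49.7) and 35.0% (18.1 to 56.7). Over all regions they were 38.1% and 30.6%, inside these intervals. The 7 shared, WT-specific regions were at Hnrnpf, Sf3a3, Snrpc, Snrpg, Srsf1, Srsf5 and Srsf7. These comparisons share the WT Foxp3 samples, and no association was tested.

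Across the 4 comparisons, 40 of the 82 regions were listed for Foxp3 and never for Bcl11b (48.8%, against 57.8% of all regions), 28 for both (34.1%, against 24.8%) and 14 for Bcl11b only (17.1%, against 17.4%). The most frequent pattern, with 19 regions (23.2%, against 24.2%), was Foxp3-only and common with Bcl11b-KO. Next came 11 regions (13.4%, against 15.5%) that were Foxp3-only and WT-specific. Neither pattern was listed against Tn or KIKO, and both shares were near those of all regions. The third, with 8 regions (9.76%, against 6.52%), was specific to WT Treg Bcl11b in all 3 Bcl11b comparisons with no Foxp3, at Hnrnph3, Hnrnpul1, Sf3b5, Sf3b6, Snrpd3, Snrpf, Snrpn and Srsf5. None of these 8 lay within 1 kb of a start of its gene, and all 8 had the 198 bp width typical of Treg Bcl11b. Neither count was made over the 1439 regions of this pattern. Of all Bcl11b-only regions 9.21% lay within 1 kb of a start. The 198 bp width was itself read from the regions specific to Treg Bcl11b.

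The lists did not always place a region in the same set. Regions at Hnrnpa3, Hnrnph1, Hnrnpu, Sf3b4, Snrpa1 and Srsf11, 6 in all (7.32%, 3.40 to 15.1; all regions 1.85%), were Foxp3-only in the comparison of the factors although Treg Bcl11b was listed there against Tn or KIKO. Another 6 were shared by Treg Bcl11b and Foxp3 but not listed for Treg Bcl11b against either (7.32%, against 8.04% of all regions). For Foxp3, 7 regions were common to WT and Bcl11b-KO but not listed in the comparison with Bcl11b (8.54%, against 8.75%). They include the only region of Srsf12 listed for WT Foxp3. The other way, 2 were listed for WT Foxp3 against Bcl11b but not in the Bcl11b-KO comparison (2.44%, against 2.48%). The reason for these disagreements was not tested, and a Foxp3-only label at the first 6 genes does not mean that Bcl11b was absent from the other lists.

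Promoter windows give a count that does not depend on the nearest-gene rule. Of the 47 genes with a window, 33 had a window covered by at least 1 base of a region (70.2%, 56.0 to 81.3), beside 31.8% of all protein-coding genes and 75.4% of ribosomal protein genes. All 33 were covered in the WT Foxp3 set. Foxp3 in Bcl11b-KO Treg covered 22 (46.8%, against 22.0% of all genes), Bcl11b in WT Treg 19 (40.4%, against 14.8%), Bcl11b in Tn 14 (29.8%, against 10.9%) and Bcl11b in KIKO 7 (14.9%, against 5.03%). For Bcl11b in WT Treg, Tn and KIKO, ribosomal protein genes gave 53.6%, 39.1% and 27.5% and other splicing genes 39.3%, 25.8% and 11.2%. For Foxp3 in WT and Bcl11b-KO Treg, ribosomal protein genes gave 73.9% and 39.1% and other splicing genes 78.7% and 49.4%. By family, KIKO Bcl11b covered 4 of 10 Snrp genes, 2 of 7 Sf3a or Sf3b genes, 1 of 19 Hnrnp genes and 0 of 11 Srsf genes.

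**Figure D4:**
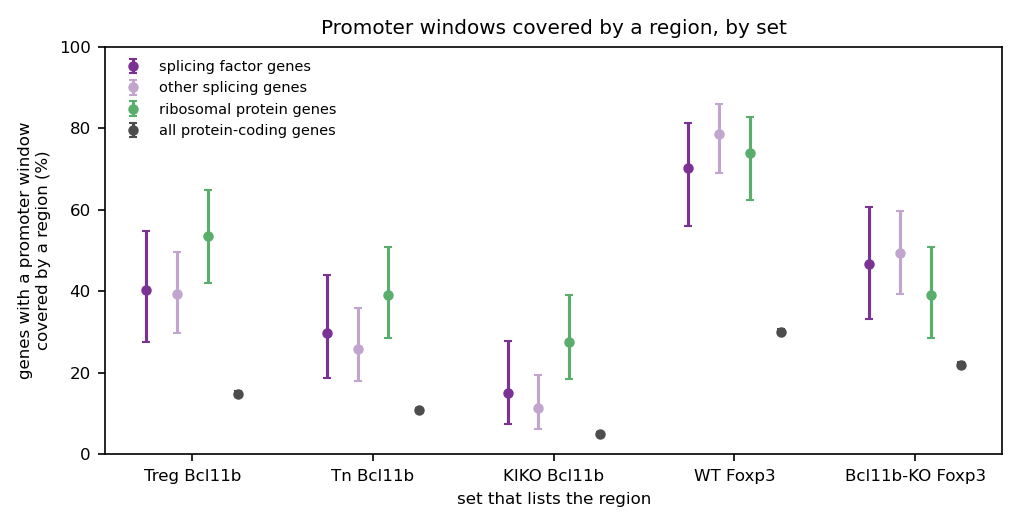
Share of genes with a promoter window covered by a region (vertical axis, %) in each of the 5 sets (horizontal axis), by gene group. Points are shares and bars are 95% Wilson intervals. Splicing factor genes run from 70.2% for WT Foxp3 to 14.9% for KIKO Bcl11b. They lie above all protein-coding genes in every set, as do other splicing genes and ribosomal protein genes.

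ETS words were more frequent in covered than in uncovered windows of splicing factor genes, with no test made. Of 44 covered windows 22 held one (50%, 35.8 to 64.2) and of 20 uncovered windows 2 did (10%, 2.79 to 30.1). Counted by gene, since windows of 1 gene overlap, it was 17 of 33 covered genes (51.5%, 35.2 to 67.5) and 2 of 14 uncovered genes (14.3%, 4.01 to 39.9), and these intervals overlapped. The same direction held over all protein-coding genes, with 37.8% of covered and 14.6% of uncovered genes and 19.6% of all windows. Counting a match once where windows overlap, 31 of the ETS matches in covered windows lay wholly inside a region and 3 did not. Overlapping words still counted as separate matches, so these are not counts of separate sites. Regions covered 64.8% of the bases of these windows. Examples printed above are the Snrpe window, where overlapping matches form 1 run of 10 capitals and another match lies before it, and the Sf3a3 window, where both overlap.

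Other words were compared in the same way. GC boxes were found in 70.5% of covered and 60.0% of uncovered splicing factor windows (46.2% of all windows), and CCAAT boxes in 40.9% and 55.0% (38.2%). By gene, CCAAT boxes were at 14 of 33 covered genes (42.4%, 27.2 to 59.2) and 10 of 14 uncovered ones (71.4%, 45.4 to 88.3), against 44.6% and 41.3% of all protein-coding genes. The forkhead word, of the kind Foxp3 is known to bind, was found in 1 of 44 covered windows (2.27%) and 1 of 20 uncovered ones (3.01% of all windows), and the RUNX word likewise in 1 and 1 (4.71% of all windows). The BCL11A word, known for the close relative of Bcl11b, was found in 7 of 44 (15.9%) and 2 of 20 (10%; 12.5% of all windows). The CRE was found in 2 of 44 and 0 of 20 (2.23% of all windows) and the YY1 word in 1 and 1 (3.05%). Median GC content was 63.0% in covered and 58.2% in uncovered windows, so the base composition also differed. A match is a run of letters and not a measured site, and the sequences under regions outside these windows were not used here.

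**Figure D5:**
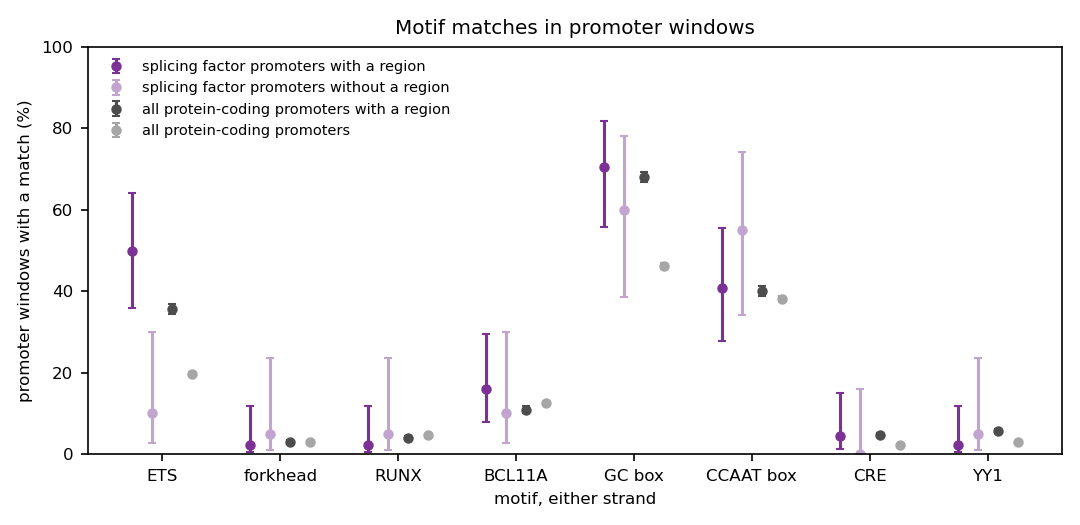
Share of 300-base promoter windows with at least 1 match on either strand (vertical axis, %) for 8 motifs (horizontal axis). Points are shares and bars are 95% Wilson intervals; for ETS the covered splicing factor windows are at 50% and the uncovered ones at 10%, the intervals of the other motifs overlap, and windows of 1 gene can overlap and so are not independent.

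Splicing genes outside the 5 symbol prefixes also often had a region, with a lower share of their regions at starts. Of 111 such genes, 99 had a region (89.2%, 82.0 to 93.7), 187 regions in all, of which 47.1% (40.0 to 54.2) lay within 1 kb of a start, at a median distance of 1335 bp. Most regions were at Mbnl1 with 11, which steers alternative exons, then Celf2 and Khdrbs1 with 7 each, Scaf8 with 6, and Acin1 and Clk3 with 4. In the comparison with Bcl11b-KO 54 of 152 were WT-specific (35.5%, 28.4 to 43.4, above the 27.2% of all regions), 87 common and 11 KO-specific (7.24%), the last including 2 at Lsm4. Against Tn 15 of 73 were Treg-specific (20.5%) and 4 Tn-specific, at Clk3, Prpf39, Son and Syncrip. Khdrbs1 and Acin1 had 3 Bcl11b-only regions each. At ribosomal protein genes 47 of 80 regions were shared by Bcl11b and Foxp3 (58.8%, 47.8 to 68.9), and at splicing factor genes 31.4% (21.8 to 43.0), with intervals that did not overlap. The positions of these groups differed too, since 42.0% of the ribosomal protein regions and 24.4% of the splicing factor regions lay within 0.1 kb of a start, and the part of position in the difference was not tested.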

How the data were processed

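The authors deposited 12 lists of regions with 3 columns (chromosome, start, end) and no header, 3 for each of 4 comparisons; they hold positions and no unit of signal. Per the submitters' processing notes the build was mm10 and the tools, named without roles, included HISAT2 2.1.0, HOMER 4.10.1, SAMtools 1.3, deepTools, cutadapt 1.12, Trim Galore 0.4.2 and FastQC. The peak threshold, the pooling of replicates and the rule for specific and common lists are each not given in the sources used here, and the depth per sample is unknown. Of the replicates, the third of Treg Bcl11b names no list in its description and the second of WT Foxp3 leaves 1 out, so whether they entered is not known.

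Starts were shifted to count from 1. Identical positions were merged (47553 rows, 22081 regions; 127 rows repeated a region within a list), and a region in 2 classes of 1 comparison, which no splicing factor region was, was left out of it. Gene positions and promoters came from RefSeq tables of GRCm38.p6, whose coordinates match mm10. Python 3.11.15 with pandas 2.3.3, numpy 2.4.6 and scipy 1.17.1 was used, and gene assignment and motif search were tested on simulated data (1200 of 1200 and 400 of 400 cases right). No count model, set test or p-value was used. Named genes were those with the most regions overall and per class, all with a rare class or listed in every comparison, and all SF3 genes; values of other members follow for completeness. The members, lists and motifs were chosen with earlier results of these data known.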

Additional observations from a re-analysis of the deposited data

How the results depend on the processing

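The shares were computed again with other limits and rules of assignment, without each gene family, by gene, and at other positions. Of 69 recomputed values 58 stayed within the interval of the reported one or, for the count of genes, within 1.5 times. The 58 include values that could not move. No splicing factor region was in 2 classes or farther than 13164 bp from its gene, so keeping both classes or a limit of 20 kb changed nothing. Leaving out the Srsf, Snrp or SF3 genes could not take the count of genes beyond 1.5 times. Regions wider than 276 bp left 27 of the 53 genes with a region, against 45, and without the Hnrnp genes it was 28 of the remaining 32. The Treg-specific share of 29.4% became 5.88% with wide regions, 56.2% over 1 kb from a gene end and 5.88% within 1 kb of a start. The WT-specific share against KIKO, 48.1%, became 75.0% over 1 kb from a gene end and 23.1% within 1 kb of a start. The share common to both factors, 31.4%, became 51.6% with wide regions and 20.8% over 1 kb from a gene end. The WT-specific Foxp3 share of 28.8% ranged from 22.2% to 33.3%. The share near a start, 61.0%, became 72.0% within 2.5 kb and 80.6% with wide regions. Beyond the smaller sets of regions, the cause was not tested. The alternatives within 1 kb of a start and without regions given to 2 genes were chosen after seeing the data.

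No paired analysis was possible because the lists hold groups and carry no replicate, so leaving out a replicate was not possible either. Whether replicates came from separate mice is not stated. Depth is unknown, intervals cover counting error only, and a region that is not listed is not shown to be unbound. The promoter table lacked Hnrnpll, Hnrnpul2, Sf3b4, Sf3b5, Snrpb and Snrpd1.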
